A study of Mus musculus with 16 samples.

Results

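Amyloid precursor and secretase genes were followed in the hippocampus of mice of the SAM/P-8 and SAM/R-1 strains. The 9 genes listed were the precursor App and its relatives Aplp1 and Aplp2, the β-secretases Bace1 and Bace2, the α-secretase Adam10, and the γ-secretase genes Psen2, Ncstn and Aph1a. Members were the non-control array probes whose RefSeq transcript belongs to one of these genes, and that rule uses no measured value. The arrays gave 11 such probes among 41174 non-control probes, and they covered 8 of the 9 genes. No probe was named for Adam10 here, and that gene was not analysed here. Aplp2, Bace2 and Aph1a had 2 probes each and the other 5 genes had 1. All 11 probes passed the filter on dim signal, which asked for a signal well above background in 4 of 4 arrays of some group.

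The senescence-accelerated mouse strains were derived by phenotypic selection from AKR/J mice. SAM/P-8 is a senescence-prone strain used as a model of amyloid and memory decline, and SAM/R-1 is its senescence-resistant counterpart. Males were 8 weeks old at the start and were fed the rodent diet CE-2 for 8 weeks, either plain (control) or with 0.1% coral calcium hydride (CCH). This gave 4 groups of 4 arrays each, named SAM/R-1 control, SAM/R-1 CCH, SAM/P-8 control and SAM/P-8 CCH, 16 one-colour arrays in all. The labels do not say whether each array is a separate animal, so p-values here speak of the scatter among these samples alone, which may be technical. The 4 groups lay on 4 slides with 1 group on each, and for every difference given here an effect of slide and an effect of group cannot be told apart.

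Of 43379 non-control spots on an array, 28920 to 33333 passed the scanner's test for signal above background. The 7 of 9 listed hippocampal subfield markers that were measured (Dsp and Bok were not) were well above background in every group, as were all 8 neuron markers. Replicate 4 of SAM/P-8 CCH stood apart. Its mean deviation over 7 striatum markers, relative to the mean of all 16 arrays, was 3.82 on the log2 scale, against -0.83 to 0.24 on the other 15 arrays. On the same array 6 oligodendrocyte markers deviated by 0.63, against -0.25 to 0.20 on the others, and the hippocampal subfield markers by -0.42, against -0.12 to 0.23. Its microglia markers deviated by 0.17, against -0.13 to 0.11, and its neuron markers by -0.07, against -0.05 to 0.09. The member differences on the CCH diet and for CCH in SAM/P-8 include this array, and their values without it are given with the called results and, for the other members, after the γ-secretase genes.

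The amyloid precursor protein is a membrane protein that is cut in alternative ways. Cleavage by an α-secretase, mainly ADAM10 in neurons, releases a soluble ectodomain, whereas cleavage by the β-secretase BACE1 followed by γ-secretase releases the amyloid-β peptide. γ-Secretase is a membrane complex of a presenilin such as PSEN2, nicastrin (NCSTN), an APH1 subunit and PEN-2 (PSENEN), and it also cuts Notch receptors and many other membrane stubs.

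The 250 bases before the annotated start are printed for App and its relatives Aplp1 and Aplp2, because the strain differences that passed the test among the members lay on probes of these 3 genes. The sequences are from RefSeq on GRCm38.p6, all on the minus strand, and run 5′ to 3′. Capitals mark the GC box, searched as GGGCGG on both strands with overlaps counted.
App promoter, chr16:85173708-85173957: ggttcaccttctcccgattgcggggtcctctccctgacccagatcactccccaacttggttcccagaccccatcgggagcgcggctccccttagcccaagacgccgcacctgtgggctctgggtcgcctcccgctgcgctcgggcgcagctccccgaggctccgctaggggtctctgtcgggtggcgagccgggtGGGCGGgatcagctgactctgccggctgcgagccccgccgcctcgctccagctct
Aplp1 promoter, chr7:30445583-30445832: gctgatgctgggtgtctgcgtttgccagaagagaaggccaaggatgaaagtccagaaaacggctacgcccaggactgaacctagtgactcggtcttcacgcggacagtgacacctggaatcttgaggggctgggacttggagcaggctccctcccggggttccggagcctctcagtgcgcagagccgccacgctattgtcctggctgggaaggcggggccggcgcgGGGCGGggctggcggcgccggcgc
Aplp2 promoter, chr9:31211849-31212098: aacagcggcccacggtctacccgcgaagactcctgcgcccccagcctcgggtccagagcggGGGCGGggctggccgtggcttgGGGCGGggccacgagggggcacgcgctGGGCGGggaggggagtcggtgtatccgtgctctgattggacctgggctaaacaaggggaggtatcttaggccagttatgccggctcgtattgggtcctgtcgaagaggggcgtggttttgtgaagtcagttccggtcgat
App and Aplp1 each held 1 GC box and Aplp2 held 3, with GC contents of 70.8%, 66.0% and 66.4%. Over 32851 RefSeq promoters of the same length, 32.7% held the GC box and the median GC content was 52.4%. None of the 3 promoters held TATAAA, which 12.4% of all promoters held, and none held the cyclic AMP response element TGACGTCA, which 1.55% held. The GC box was not particular to these 3 genes among the members. Adam10 held 3 (74.0% GC), Aph1a 1 (57.2%) and Ncstn 0 (63.2%). Psen2 held 2 at 1 annotated start (62.8%) and 0 at another (44.8%). These are matches of letters and were not measured as binding sites.

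Levels are given as log2 of the processed signal minus the 75th percentile of the same array, so 0 is a signal at that percentile. Levels of different probes are not set against each other, because probes differ in brightness. Differences are log2 differences of group means with the standard error (SE) of limma, and adjusted p-values are Benjamini-Hochberg values over all 29009 probes kept. A difference with an adjusted p under 0.05 is written as higher or lower, and where a gene has 2 probes the brighter is probe 1 and stands for the gene in counts.

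**Figure D1:**
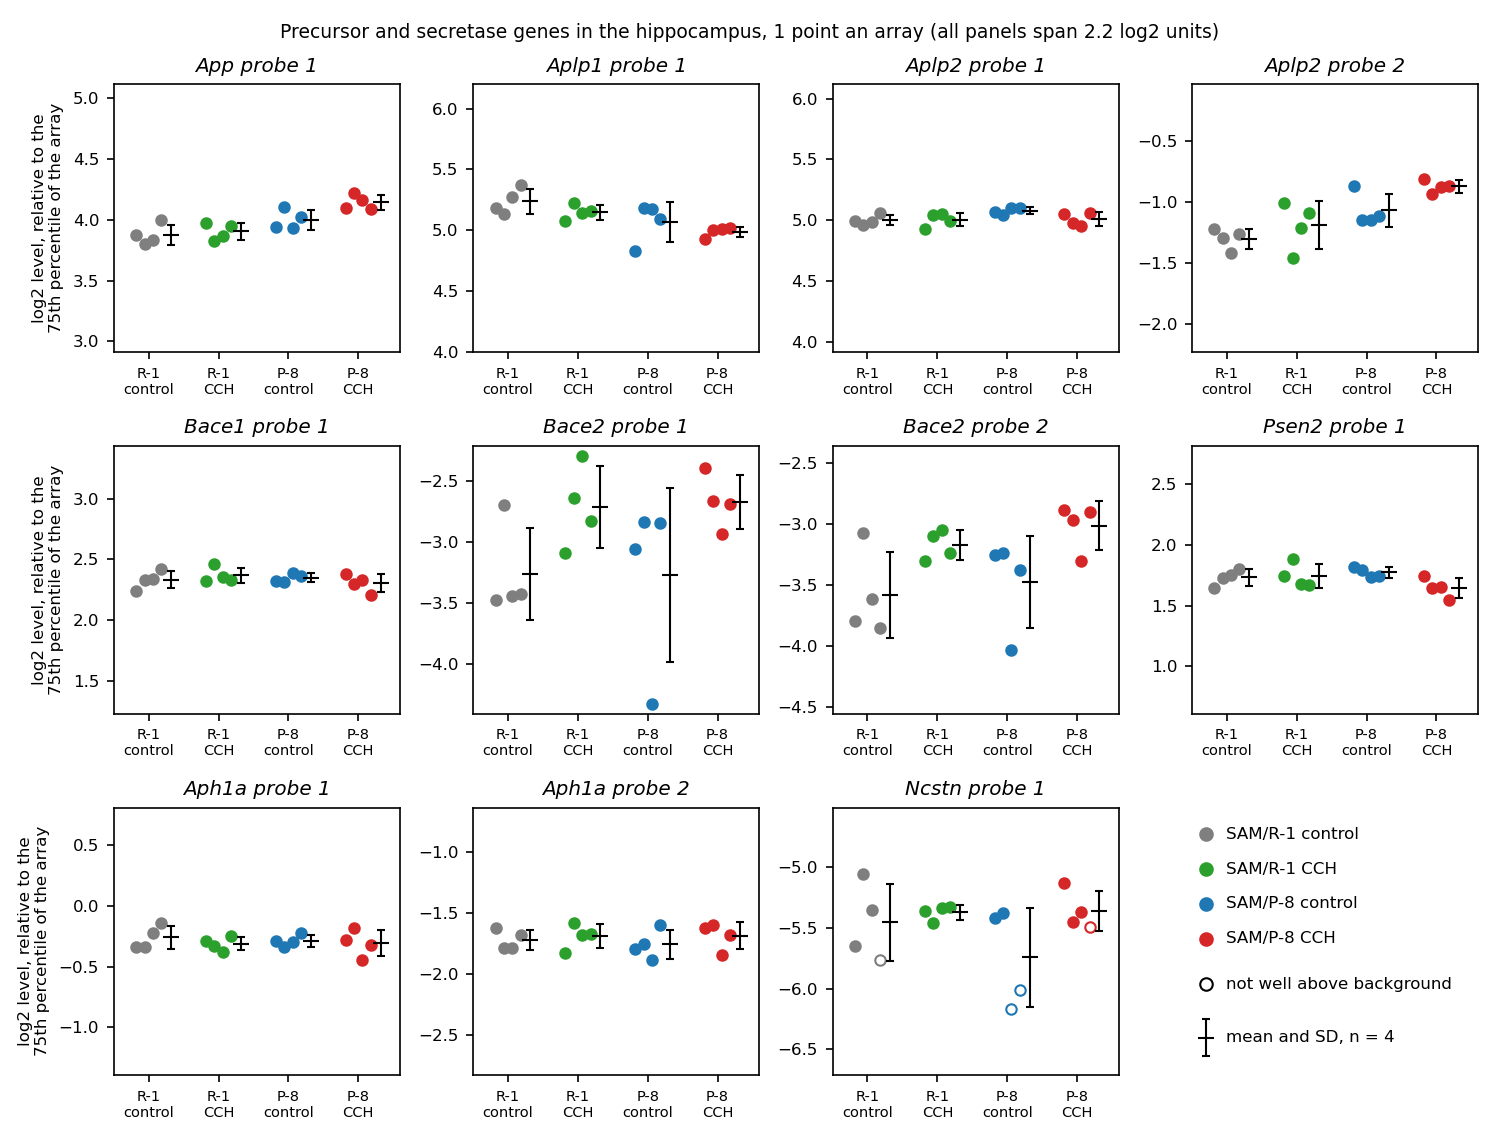
Level of each member probe on each array, as log2 of the processed signal minus the array's 75th percentile, by strain and diet group, with each filled point an array, open points arrays not well above background, and bars the mean and SD of 4. For App the 4 SAM/P-8 CCH arrays sit between 4.09 and 4.22, all above the SAM/R-1 CCH arrays, which sit between 3.83 and 3.98.

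By the brightest probe of each gene, App was the 1 member whose strain difference passed the test within a diet, and it did so on the CCH diet and not on the control diet. Its levels were 4.10, 4.22, 4.17 and 4.09 on the SAM/P-8 CCH arrays and 3.98, 3.83, 3.87 and 3.95 on the SAM/R-1 CCH arrays. All 4 SAM/P-8 arrays lay above all 4 SAM/R-1 arrays. App was 0.24 ± 0.06 (SE, n = 4 per group, 95% interval 0.11 to 0.36) higher in SAM/P-8, a 1.18-fold difference with an adjusted p of 0.0142. Without replicate 4 of SAM/P-8 CCH, the array with striatum markers, the difference was 0.26 with an adjusted p of 0.0172. With normexp background correction in place of the scanner's the difference was 0.29 and the adjusted p 0.112, so the call ended there although the difference was not smaller.

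On the control diet App read 3.94, 4.10, 3.93 and 4.02 in SAM/P-8 and 3.87, 3.80, 3.83 and 3.997 in SAM/R-1. These groups overlapped, the highest SAM/R-1 array lying above 2 of the SAM/P-8 arrays. The difference was 0.12 ± 0.06 (SE, n = 4 per group) with an adjusted p of 0.194. In order of their means, App stood at 3.88 ± 0.085 in SAM/R-1 control, 3.90 ± 0.069 in SAM/R-1 CCH, 3.998 ± 0.081 in SAM/P-8 control and 4.14 ± 0.063 in SAM/P-8 CCH (SD, n = 4 each). The arrays of each neighbouring pair in this order overlapped.

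CCH against control gave an App difference of 0.15 ± 0.06 (SE) in SAM/P-8, with an adjusted p of 0.200, and of 0.03 in SAM/R-1. The difference between these (the strain by diet interaction) was 0.12 ± 0.08 (SE, 95% interval -0.06 to 0.29) with an adjusted p of 0.946. The strain difference on the CCH diet was thus not shown to differ from that on the control diet. Averaged over both diets, a contrast added after the data were seen, App was 0.18 ± 0.04 (SE) higher in SAM/P-8, or 1.13-fold, with an adjusted p of 0.00516. Normexp gave 0.21 with an adjusted p of 0.0509, which ends that call, and leaving out replicate 4 of SAM/P-8 CCH gave 0.19 with an adjusted p of 0.00544.

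The App probe was printed 10 times on each array, which allows the error within an array to be set beside that between arrays. Over the 160 App spots the within-array SD ran from 0.028 to 0.083 with a median of 0.034. The largest was on replicate 2 of SAM/R-1 CCH, the lowest array of its group, whose spots spanned 0.24. The SD between the 4 array means of a group ran from 0.063 to 0.085. The scatter between arrays of a group was therefore larger than that of the median array, and averaging 10 spots reduces only the within-array scatter. None of the 160 spots carried the scanner's population outlier mark.

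**Figure D2:**
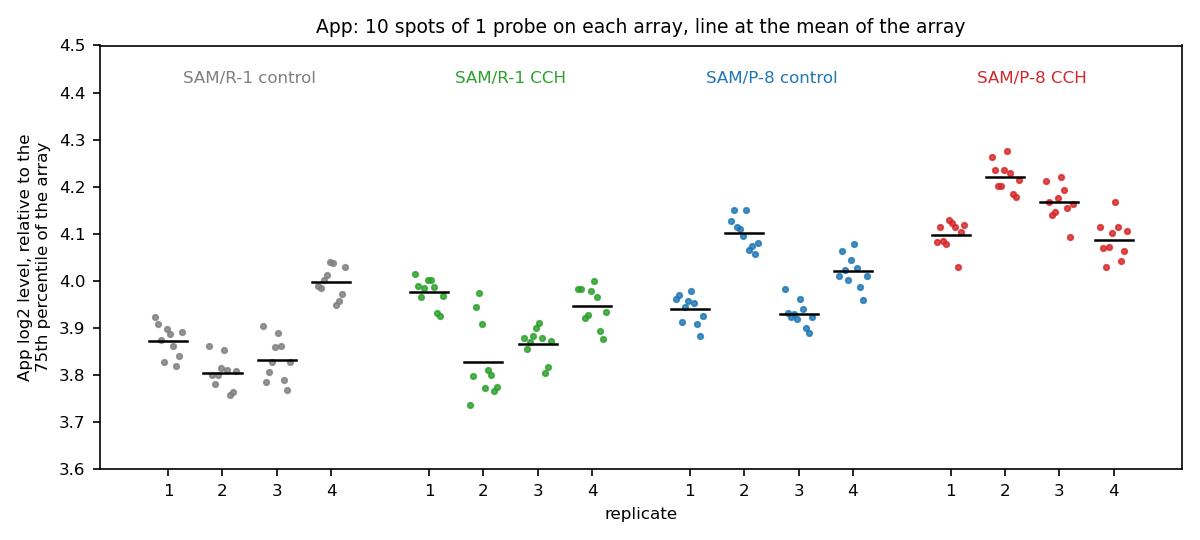
The 10 App spots of each of the 16 arrays, as log2 of the processed signal minus the array's 75th percentile, with each point a spot and arrays ordered by group. The median within-array SD is 0.034, and the widest spread is on replicate 2 of SAM/R-1 CCH, with an SD of 0.083. The SAM/P-8 CCH array means lie between 4.09 and 4.22.

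In bulk tissue, fewer cells of a type and less RNA per cell cannot be told apart. Some markers of other cell types also passed the test between strains. Over all genes 12.8% passed in either direction on the control diet, 12.6% on the CCH diet and 26.0% in the averaged strain contrast. Of all genes, 6.18%, 6.11% and 11.7% were higher in SAM/P-8. Against these shares 1 called marker in a list of 5 or 6 says little. On the CCH diet 3 of 6 microglia markers were higher in SAM/P-8 (Itgam by 0.43, Aif1 by 0.33 and Cx3cr1 by 0.29), 1 of 6 astrocyte markers (Gfap by 0.49), 1 of 5 endothelial markers (Pecam1 by 0.57) and 2 of 5 meninges markers. On the control diet all 5 endothelial markers, 1 of 6 microglia, 1 of 6 astrocyte and 1 of 5 meninges markers were higher in SAM/P-8. No neuron or oligodendrocyte marker passed the test in either strain comparison within a diet. In the averaged strain contrast, where App and Aplp1 passed, 3 of 8 neuron markers passed (Snap25 at 0.25, Map2 at -0.26 and Tubb3 at -0.15) and 1 of 6 oligodendrocyte markers (Mbp at -0.28). There all 5 endothelial, 4 of 5 meninges, 3 of 6 microglia and 1 of 6 astrocyte markers were higher in SAM/P-8. The summed level of the microglia list was 3.09 to 3.22 on the SAM/P-8 CCH arrays and 2.85 to 3.05 on the SAM/R-1 CCH arrays. That of the endothelial list was 3.30 to 3.70 and 3.06 to 3.47 on these arrays, and 3.52 to 3.88 against 2.80 to 3.19 on the control diet. All markers of both lists were well above background in every group. The part of these cell types in the values of App, Aplp1 and Aplp2 was not tested.

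Aplp1, a neuronal relative of App whose product is also cut by secretases but holds no amyloid-β sequence, lay the other way. On the CCH diet it read 4.93, 5.002, 5.01 and 5.01 in SAM/P-8 and 5.07, 5.22, 5.14 and 5.16 in SAM/R-1. The arrays did not overlap, yet the difference of -0.16 ± 0.07 (SE) had an adjusted p of 0.178. On the control diet it read 4.83, 5.18, 5.17 and 5.09 in SAM/P-8 and 5.18, 5.13, 5.27 and 5.37 in SAM/R-1, a difference of -0.17 ± 0.07 (SE) with an adjusted p of 0.157. Replicate 1 of SAM/P-8 control was the low one, and the groups overlapped. Averaged over both diets, again a contrast added after the data were seen, Aplp1 was 0.17 ± 0.05 (SE) lower in SAM/P-8 (-0.17 on the log2 scale, 1.12-fold) with an adjusted p of 0.0324. That call was lost without replicate 1 of SAM/P-8 CCH, without any of replicates 2, 3 and 4 of SAM/R-1 CCH, and without replicate 3 or 4 of SAM/R-1 control, with adjusted p-values of 0.0506 to 0.0632, and under normexp (-0.14, adjusted p 0.286). Without replicate 4 of SAM/P-8 CCH it was -0.17 with an adjusted p of 0.0405.

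Aplp2, the broadly expressed relative, was read by 2 probes that differed. Probe 1 read 5.05, 4.97, 4.95 and 5.06 in SAM/P-8 CCH, 5.07, 5.04, 5.10 and 5.10 in SAM/P-8 control, 4.93, 5.04, 5.05 and 4.99 in SAM/R-1 CCH, and 4.997, 4.96, 4.99 and 5.06 in SAM/R-1 control. Its strain differences were 0.08 ± 0.04 (SE) on the control diet and 0.01 on the CCH diet, and neither passed the test. The dimmer probe 2 read -0.81, -0.93, -0.88 and -0.87 in SAM/P-8 CCH and -1.004, -1.46, -1.21 and -1.09 in SAM/R-1 CCH. On this diet its level was 0.32 ± 0.09 (SE) higher in SAM/P-8, or 1.25-fold, with an adjusted p of 0.0287 and no overlap. Without replicate 2 of SAM/R-1 CCH, the lowest of its group, the difference was 0.23 and did not pass. The adjusted p also went above 0.05, with the difference about as large, without replicate 3 of SAM/R-1 CCH (0.31) or replicate 1, 3 or 4 of SAM/P-8 CCH (0.30, 0.32 and 0.32). Normexp gave 0.21 with an adjusted p of 0.159.

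On the control diet the second Aplp2 probe read -0.87, -1.15, -1.15 and -1.11 in SAM/P-8 and -1.22, -1.298, -1.42 and -1.26 in SAM/R-1. The arrays did not overlap, and the difference was 0.23 ± 0.09 (SE) with an adjusted p of 0.105. In this comparison the arrays did not overlap for 18.9% of all genes by their brightest probe. Averaged over both diets it was 0.28 ± 0.06 (SE) higher in SAM/P-8, or 1.21-fold, with an adjusted p of 0.00519, against 0.04 with an adjusted p of 0.355 at probe 1. The files give no sequence of either probe, so which transcripts each reads was not analysed here.

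Bace1, the main β-secretase of the brain, gave no difference that passed the test. It read 2.38, 2.30, 2.33 and 2.21 in SAM/P-8 CCH, 2.32, 2.31, 2.39 and 2.37 in SAM/P-8 control, 2.32, 2.46, 2.36 and 2.33 in SAM/R-1 CCH, and 2.24, 2.33, 2.34 and 2.42 in SAM/R-1 control. All 4 groups overlapped, and the strain differences were 0.01 on the control diet and -0.06 ± 0.05 (SE) on the CCH diet, with adjusted p-values of 0.895 and 0.457.

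Bace2, a related protease that can also cut within the amyloid-β sequence, was dim and variable. Probe 1 read -2.39, -2.66, -2.93 and -2.69 in SAM/P-8 CCH and -3.06, -2.84, -4.33 and -2.85 in SAM/P-8 control. It read -3.09, -2.64, -2.29 and -2.83 in SAM/R-1 CCH and -3.48, -2.70, -3.45 and -3.43 in SAM/R-1 control. Replicate 3 of SAM/P-8 control was the lowest of all 16, and replicate 2 of SAM/R-1 control stood above the rest of its group. The 2 probes gave CCH differences of 0.60 ± 0.29 (SE, adjusted p 0.283) and 0.46 ± 0.19 (SE, adjusted p 0.201) in SAM/P-8, and 0.55 ± 0.29 (SE, adjusted p 0.531) and 0.41 ± 0.19 (SE, adjusted p 0.444) in SAM/R-1.

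Averaged over both strains, in a contrast added after the data were seen, the CCH difference of Bace2 was 0.58 ± 0.21 (SE, 1.49-fold, adjusted p 0.119) at probe 1 and 0.44 ± 0.13 (SE, 1.35-fold, adjusted p 0.0729) at probe 2. Neither passed the test. Without replicate 3 of SAM/P-8 control the differences in SAM/P-8 were 0.25 and 0.28, a move of more than 1.5 times. Without replicate 2 of SAM/R-1 control those in SAM/R-1 were 0.74 and 0.58, and the averaged difference of probe 2 was 0.52 and passed (adjusted p 0.0432). The strain differences of Bace2 were -0.01 and 0.11 at the 2 probes on the control diet and 0.04 and 0.16 on the CCH diet.

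Among the γ-secretase genes no difference passed the test. Psen2, a presenilin and thus a catalytic subunit, read 1.75, 1.64, 1.65 and 1.545 in SAM/P-8 CCH, 1.82, 1.80, 1.74 and 1.74 in SAM/P-8 control, 1.74, 1.88, 1.68 and 1.67 in SAM/R-1 CCH, and 1.64, 1.73, 1.75 and 1.805 in SAM/R-1 control. The lowest of all 16 was replicate 4 of SAM/P-8 CCH, the array with striatum markers, and the groups overlapped. CCH against control gave -0.13 ± 0.06 (SE, adjusted p 0.258) in SAM/P-8, and the interaction was -0.14 ± 0.08 (SE, adjusted p 0.946).

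Aph1a, a scaffold subunit, read between -0.45 and -0.14 over all 16 arrays at probe 1 and between -1.88 and -1.58 at probe 2, with all groups overlapping. Its strain differences were -0.03 and -0.04 at the 2 probes on the control diet and 0.00 at both on the CCH diet. Ncstn, the substrate-binding subunit nicastrin, was well above background on 12 of 16 arrays, with 2 of 4 in SAM/P-8 control, 3 of 4 in SAM/P-8 CCH, 3 of 4 in SAM/R-1 control and 4 of 4 in SAM/R-1 CCH. Its values ran from -6.17 to -5.05, with the 2 lowest in SAM/P-8 control. The CCH difference in SAM/P-8 was 0.38 ± 0.18 (SE, adjusted p 0.263) and the strain difference on the control diet was -0.29 ± 0.18 (SE, adjusted p 0.323).

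Without replicate 4 of SAM/P-8 CCH no member gene other than App passed by its brightest probe within a diet or for CCH in SAM/P-8. Bace1 then gave -0.03 between strains on the CCH diet and -0.01 for CCH in SAM/P-8, where all arrays gave -0.06 and -0.04. Psen2 gave -0.06 and -0.09 in place of -0.10 and -0.13. For CCH in SAM/P-8, Bace2 gave 0.61 and Ncstn 0.43, in place of 0.60 and 0.38. Aplp1 gave -0.17 between strains on the CCH diet, in place of -0.16, and the first Aplp2 probe -0.0109, in place of 0.01.

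**Figure D3:**
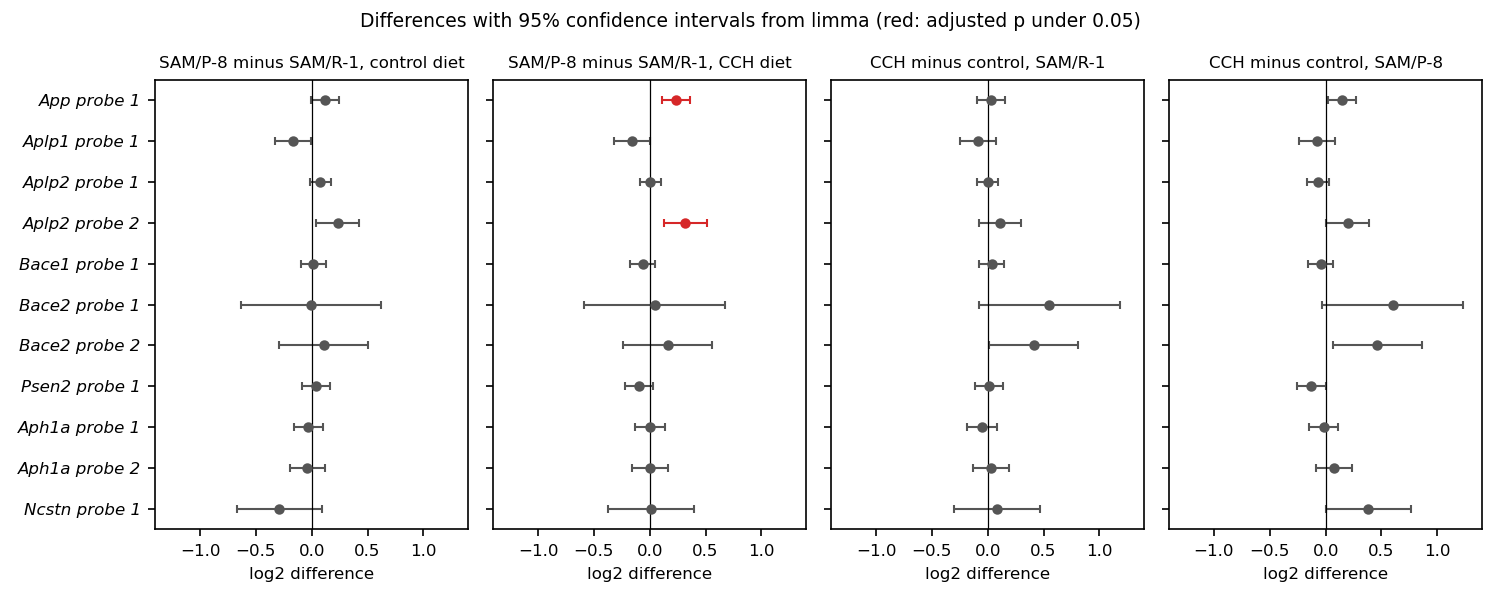
Log2 difference of each member probe in the comparisons between groups, with each point the limma estimate each bar its 95% interval, and red marking an adjusted p under 0.05. App on the CCH diet stands at 0.24 with an interval of 0.11 to 0.36, and the Bace2 intervals are the widest.

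Counted over the 8 measured genes, the shares called lay near or below those of all genes and tell nothing particular to the members. On the control diet 0 of 8 passed between strains, where 12.8% of 13459 genes did, with 1 of 8 at an unadjusted p under 0.05 by limma against 26.4% of genes. On the CCH diet 1 of 8, App, was higher in SAM/P-8, where 6.11% of genes were higher and 12.6% passed in either direction. At an unadjusted p under 0.05 it was 1 of 8 against 27.3% of genes, and 2 of 8 had arrays that did not overlap, against 20.6% of genes. CCH against control gave 0 of 8 in SAM/P-8, where 0.780% of genes passed, with 2 of 8 at an unadjusted p under 0.05 by limma against 18.5% of genes. In SAM/R-1 it gave 0 of 8, where 0.104% passed, with 0 of 8 unadjusted against 11.2%. The interaction gave 0 of 8, where 0.134% of genes passed, with 0 of 8 unadjusted against 4.82%. The averaged strain contrast gave 2 of 8, App and Aplp1, where 26.0% of genes passed. The averaged CCH contrast gave 0 of 8, where 4.15% passed, with 1 of 8 unadjusted by limma against 24.2%. The median size of the members' strain differences was 0.059 on the control diet and 0.054 on the CCH diet, against 0.10 and 0.11 over all genes.

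Around the members, 8 lists held 129 further genes of the pathway, of which 118 were measured. Sorl1, Adam12, Adam22, Tspan10, Pcsk5, Numbl, Plau, Ager and Sez6l2 were among those not analysed here. On the control diet 14 of the 118 passed the test, 6 higher and 8 lower in SAM/P-8 (11.9%, against 12.8% of all genes). On the CCH diet 9 passed, 5 higher and 4 lower (7.63%, against 12.6%). CCH against control gave 1 lower in SAM/P-8 and 0 in SAM/R-1, and the interaction gave 0. The median difference over the 118 genes was -0.01 and -0.03 in the strain comparisons, against -0.01 and -0.02 over all genes. Without replicate 4 of SAM/P-8 CCH the strain counts were 15 and 12.

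**Figure D4:**
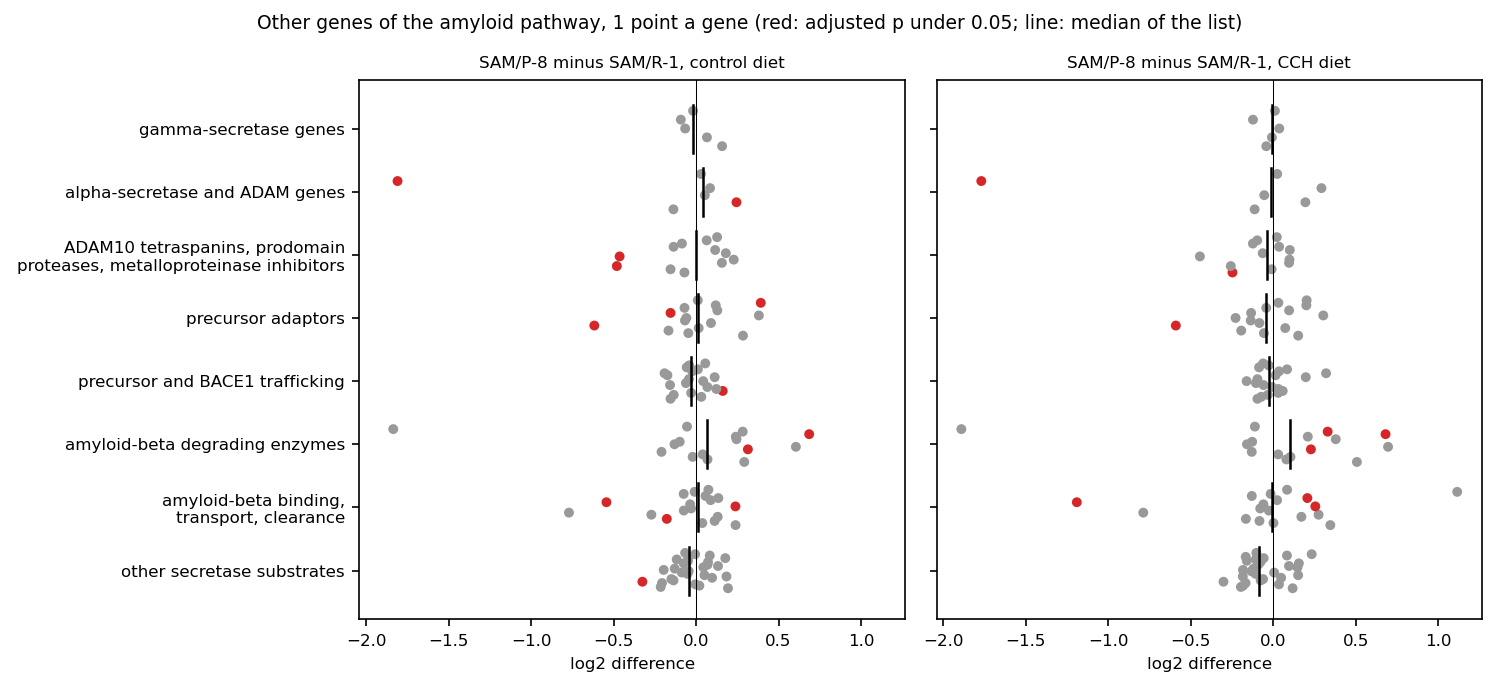
Strain difference (log2, SAM/P-8 minus SAM/R-1) of the measured genes of the 8 pathway lists on each diet, with each point a gene by its brightest probe, red for an adjusted p under 0.05 and a line at each list's median. Among the called genes Adam8 stands farthest to the low side, at -1.81 and -1.77, and Pitrm1 at 0.69 and 0.68.

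Of 5 other γ-secretase genes measured, none passed in either strain comparison. Psenen, which encodes the PEN-2 subunit, gave -0.09 on the control diet and -0.12 on the CCH diet, with adjusted p-values of 0.272 and 0.134, and over the average of both diets it was lower by 0.11 (-0.11, adjusted p 0.0419). Aph1b gave 0.16 (adjusted p 0.181) and -0.04 (adjusted p 0.75). Aph1b and Aph1c are near-identical copies that one probe may read together, and their values are uncertain.

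Of 6 other ADAM genes, the largest strain difference was in Adam8, a protease of myeloid cells. It read 0.87 to 1.03 in SAM/R-1 control and 0.88 to 1.43 in SAM/R-1 CCH, against -1.04 to -0.68 in SAM/P-8 control and -0.84 to -0.47 in SAM/P-8 CCH. The strains did not overlap on either diet. Adam8 was lower in SAM/P-8 by 3.51-fold on the control diet (-1.81 ± 0.12 SE, adjusted p 6.4e-08) and by 3.41-fold on the CCH diet (-1.77 ± 0.12 SE, adjusted p 8.31e-08), and it passed under all 25 alternatives run on each diet. None of the 6 microglia markers was lower in SAM/P-8 by the test. The part of myeloid cells in the Adam8 values was not tested. Adam17, the inducible α-secretase also known as TACE, was 0.24 ± 0.08 (SE, adjusted p 0.0475) higher on the control diet and passed under 7 of 25 alternatives.

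Of 12 genes for ADAM10 partners, prodomain proteases and inhibitors, 2 were lower in SAM/P-8 on the control diet and 1 on the CCH diet. None was higher, and over all genes 6.61% and 6.49% were lower. In the strain contrast averaged over both diets 3 of the 12 were lower, against 14.3% of all genes. Reck, a membrane inhibitor of metalloproteinases that also acts on ADAM10, was lower by 1.39-fold (-0.48 ± 0.09 SE, adjusted p 0.00266) on the control diet and passed under 24 of 25 alternatives. Timp3, an inhibitor of ADAM proteases, was lower there by 1.38-fold (-0.46 ± 0.14 SE, adjusted p 0.0426) and passed under 11 of 25 alternatives. Furin, which removes the prodomain of ADAM10 and BACE1, was lower on the CCH diet by 1.19-fold (-0.25 ± 0.07 SE, adjusted p 0.0333) and passed under 18 of 25.

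Of 15 genes for adaptors of the precursor and their partners, Apbb1ip was lower in SAM/P-8 on both diets (-0.62 and -0.59, adjusted p-values 0.000408 and 0.000675). Its other probe gave -0.58 and -0.66. Apbb1ip binds APBB1 and is better known as an adaptor in blood cells. Shc1 was 0.39 ± 0.10 (SE, adjusted p 0.0158) higher and Grb2 0.15 lower (-0.15 ± 0.05 SE, adjusted p 0.0477) on the control diet, and they passed under 22 and 9 of 25 alternatives. Of the 15, 1 was thus higher and 2 lower on the control diet, against 6.18% and 6.61% of all genes. On the CCH diet 1 was lower, against 6.49%. In the strain contrast averaged over both diets 4 were higher and 3 lower, against 11.7% and 14.3% of all genes. Among 19 trafficking genes, Gga3, which carries BACE1 to lysosomes, was 0.16 ± 0.05 (SE, adjusted p 0.0405) higher on the control diet and passed under 13 of 25 alternatives, while its other probe gave 0.01. None of the trafficking genes passed on the CCH diet, where Rtn4 gave 0.20 and Rtn1 -0.16 (adjusted p-values 0.171 and 0.204). Both encode reticulons, membrane proteins that bind BACE1.

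Of 15 amyloid-β degrading enzymes, 2 were higher in SAM/P-8 on the control diet and 3 on the CCH diet, and none was lower within a diet. Over all genes 6.18% and 6.11% were higher. In the strain contrast averaged over both diets 3 of the 15 were higher and 2 lower, against 11.7% and 14.3% of all genes. Pitrm1, a mitochondrial peptidase, read 0.09 to 0.21 in SAM/R-1 control and 0.01 to 0.25 in SAM/R-1 CCH, against 0.74 to 0.88 in SAM/P-8 control and 0.73 to 0.81 in SAM/P-8 CCH. The strains did not overlap, the differences were 1.61-fold (0.69 ± 0.06 SE, adjusted p 9.61e-07) and 1.60-fold (0.68 ± 0.06 SE, adjusted p 1.07e-06), and they passed under all 25 alternatives run on each diet. Ide, insulin-degrading enzyme, was higher by 0.31 (adjusted p 0.00506) and 0.23 (adjusted p 0.0351), but its other probe gave -0.12 on both diets, and the calls passed under 23 and 17 of 25 alternatives. Plat, tissue plasminogen activator, was 0.33 ± 0.09 (SE, adjusted p 0.0311) higher on the CCH diet, with 0.44 at its other probe, and passed under 19 of 25.

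Of 18 binding and clearance genes, the largest difference that passed was in Lrp2, a large endocytic receptor, called megalin, of choroid plexus and other epithelia. It read -3.37 to -2.99 in SAM/R-1 control and -3.15 to -3.00 in SAM/R-1 CCH, against -3.99 to -3.61 in SAM/P-8 control and -4.44 to -4.15 in SAM/P-8 CCH. Lrp2 was lower in SAM/P-8 by 1.46-fold on the control diet (-0.54 ± 0.10 SE, adjusted p 0.00147) and by 2.28-fold on the CCH diet (-1.19 ± 0.10 SE, adjusted p 6.23e-07), and its other probe gave -0.64 and -0.96. It was also lower in SAM/P-8 CCH than in SAM/P-8 control, by 1.44-fold (-0.53 ± 0.10 SE, adjusted p 0.0268), with -0.32 at the other probe, and this call passed under 18 of 25 alternatives. It was lost under normexp, with only the arrays compared, with the mean of the probes, and without replicate 3 or 4 of SAM/P-8 CCH or replicate 2 or 3 of SAM/P-8 control. The choroid plexus marker score ran from -3.04 to 1.74 over the arrays, and its part in the Lrp2 values was not tested.

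Apoe, the main lipid carrier of the brain, was lower on the control diet (-0.18 ± 0.05 SE, adjusted p 0.0438) and passed under 10 of 25 alternatives. Lrpap1, a chaperone of endocytic receptors, was 0.21 ± 0.05 (SE, adjusted p 0.0163) higher on the CCH diet, while its other probe gave -0.01, and it passed under 22 of 25. Of 28 other secretase substrates, the Notch ligand Dll1 was the 1 that passed, and it was lower on the control diet (-0.33 ± 0.10 SE, adjusted p 0.0422) and passed under 11 of 25 alternatives. On the CCH diet none passed, with Dll1 at -0.30 and the cell adhesion molecule Chl1 at -0.18 (adjusted p-values 0.0589 and 0.170).

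In the CCH comparisons only Lrp2 in SAM/P-8 passed, and the values of the genes nearest to the threshold are given for both strains, which have control arrays of their own. Numb, an endocytic adaptor that binds the precursor, gave 0.35 (adjusted p 0.0595) in SAM/P-8 and 0.26 (adjusted p 0.246) in SAM/R-1. Timp2, an inhibitor of matrix metalloproteinases, gave 0.29 (adjusted p 0.196) and 0.42 (adjusted p 0.195). Mmp14, a membrane metalloproteinase, gave -0.32 (adjusted p 0.133) and -0.29 (adjusted p 0.331). Gga2, a coat adaptor of the Golgi, gave 0.14 (adjusted p 0.0948) and 0.08 (adjusted p 0.479). None of these passed within a strain.

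In the contrast averaged over both strains, added after the data were seen, 6 of the 118 genes passed, or 5.08%, against 4.15% of all genes. Timp2 (0.35, adjusted p 0.0328), Numb (0.30, adjusted p 0.0161), Gga2 (0.11, adjusted p 0.0436) and Efnb2 (0.35, adjusted p 0.0485), which encodes an ephrin ligand cut by secretases, were among those higher with CCH. Mmp14 (-0.30, adjusted p 0.0386) was lower. Without replicate 4 of SAM/P-8 CCH 4 genes passed, and with normexp 0. Psenen gave -0.14 in SAM/P-8 and -0.11 in SAM/R-1, and its average of -0.13 did not pass (adjusted p 0.0632). No marker of astrocytes, microglia, endothelial cells or meninges passed in this contrast, but 1 of 7 hippocampal subfield markers was lower with CCH. The list median there was -0.10 for hippocampal subfield, 0.17 for endothelial and 0.42 for striatum markers. It was -0.68 for choroid plexus and -0.78 for the 2 red blood cell markers, against -0.02 over all genes. The part of these tissues in the values was not tested.

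Likeness between genes was described by Pearson's r over the 16 arrays after the group means were removed, over 13433 genes. The arrays share their slide and scaling, so no p is given. App was most like Arpc5 (r = 0.8997), Zfp617 (0.897) and Gm5662 (0.896), and 36 genes reached 0.8 with it. Bace1 was most like Rrp7a (0.953), Arl6ip4 (0.925) and Slco3a1 (0.921), and 113 genes reached 0.8. Between members, Bace1 and Psen2 gave 0.768, and App with the other members gave -0.305 to 0.424.

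Genes beside App, Aplp1 and Aplp2 on their chromosomes were read too, taking 5 annotated genes on either side. Of the 10 around App, 3 were measured and none passed in either strain comparison. They were Jam2 (0.03 and 0.00), Atp5j (-0.04 and -0.09) and Gabpa (-0.04 and -0.05). Of the 10 around Aplp2, 2 were measured, Zbtb44 (0.00 and -0.10) and St14 (-0.02 and -0.01), and neither passed. Of the 10 around Aplp1, 5 were measured. Among them Hcst was lower in SAM/P-8 on both diets (-0.49 and -0.44, adjusted p-values 0.0089 and 0.0194) and Nphs1 on the control diet (-0.38, adjusted p 0.00901). Over all genes 12.8% passed on the control diet and 12.6% on the CCH diet. Called neighbours were not particular to Aplp1. Around Aph1a, 1 of 5 passed on the control diet and 2 of 5 on the CCH diet. Around Bace1, 1 of 6 passed on each diet, and around Ncstn 1 of 7 on the control diet.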

How the data were processed

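Labelled RNA of 16 hippocampus samples was read on Agilent one-colour (Cy3) arrays. Per the file headers, each spot's processed signal is a deposited intensity from Agilent Feature Extraction 9.5.3.1, after background subtraction and spatial detrending. The deposited spot and local background medians are intensities too, and other deposited columns hold the scanner's marks for signal above background, saturation and uneven spots. A deposited table of the series holds log2 values that were found to be centred on each probe's median, in which each array's column, after the same centring of the scanner values, gave r of at least 0.9998582 and had a median of -0.038 to 0.0366; it was used only as an alternative. The authors' scaling is not given in the sources used here.

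Values were log2 of the processed signal minus the array's 75th percentile. 187 non-uniform spots were dropped, 2 saturated spots were kept, and spots of a probe were averaged. Of 41174 probes, 29009 were kept and 12165 left out, and 24844 had a RefSeq gene symbol. A gene was represented by its brightest probe. Group means over all 16 arrays were fitted with limma 3.58.1 in R 4.3.3 (residual df 12, prior df 2.32), with Benjamini-Hochberg adjustment over all probes kept and a threshold of 0.05, and the steps were tested on simulated data. Summaries used Python 3.11.15. Coordinates other than those of the promoters are not given, because the array design and the RefSeq table differ in build.

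The members, gene lists and tests were chosen with earlier results of these data known. Every member and probe is named; of each list and comparison, up to 4 genes past the threshold with the largest difference, or from the 2 of smallest p where none passed, and likeness to App and Bace1 by the 3 highest r. The contrasts averaged over diet or strain, leaving out population-outlier spots, and the alternatives for list genes were added after the data were seen. The alternatives were normexp background correction (offset 50), quantile scaling, no filter or a stricter filter, only the arrays compared, the replicate number as a block, the deposited table, the mean over a gene's probes, and leaving out each array. Some list genes that enter the counts are not reported here by name.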

Additional observations from a re-analysis of the deposited data

Results flagged for a closer look

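Within each group of 4, the array at the edge was compared with its nearest neighbour, and its gap, as a share of the group's range, exceeded Dixon's 95% critical value in 4 of 44 pairs of probe and group. Chance alone marks about 1 in 20. Aplp1 was lowest, at 4.93, on replicate 1 of SAM/P-8 CCH. The second Aplp2 probe was highest, at -0.87, on replicate 1 of SAM/P-8 control. The first Bace2 probe was highest, at -2.70, on replicate 2 of SAM/R-1 control, and lowest, at -4.33, on replicate 3 of SAM/P-8 control.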

How the results depend on the processing

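Alternatives were 9 other settings and the leaving out of each of 16 arrays. Of 1628 recomputed values of 67 results, 1525 kept their side of the threshold and direction, 16 lost the threshold, 5 gained it and 82 turned sign, in 31 results. No value that turned sign passed the test on either side (smallest adjusted p 0.321 by limma). Ncstn was well above background on 12 of 16 arrays, which limits its values.

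Normexp took the count of members from 1 to 0 on the CCH diet and from 2 to 0 in the averaged strain contrast, with App there at 0.21 (adjusted p 0.0509) and Aplp1 at -0.14 (0.286). Leaving out 1 array gave 1 to 2 members in that contrast, and Aplp1 was lost without replicate 1 of SAM/P-8 CCH (0.0616), 2, 3 or 4 of SAM/R-1 CCH (0.0605, 0.0506 and 0.0548) or 3 or 4 of SAM/R-1 control (0.0596 and 0.0632). The CCH-diet difference of App ran from 0.21 to 0.26 with each array left out. Aplp2 probe 2 lost its CCH-diet call under normexp (0.21, adjusted p 0.159), with only the arrays compared (0.0748), and without replicate 1, 3 or 4 of SAM/P-8 CCH or 2 or 3 of SAM/R-1 CCH. It gained the control-diet call without replicate 2 of SAM/R-1 CCH (0.0436). Averaged over probes, Aplp2 differed between strains by 0.16 (adjusted p 0.00524). Without replicate 2 of SAM/R-1 control, the averaged CCH difference of Bace2 probe 2 was 0.52 (adjusted p 0.0432), and without replicate 2 of SAM/R-1 CCH that of Aplp2 probe 2 was 0.20 (adjusted p 0.0479).

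Same-numbered arrays shared only a number: the correlations of their deviations ran from -0.25 to 0.30 over 24 pairs, and 3 of 16 arrays correlated best with their own number. With the replicate block, App on the CCH diet kept an adjusted p of 0.0286, Aplp2 probe 2 gained the control-diet call (0.23, adjusted p 0.0443), and 3759, 3672, 132 and 20 probes were called between strains on the control and CCH diets and for CCH in each strain (SAM/P-8 first), against 3999, 3903, 243 and 33. Normexp called 961, 841, 0 and 0.

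Of the 118 other pathway genes, the control-diet count of 14 was 2 under normexp, 7 with no filter, 8 with only the arrays compared, and 8 to 15 with each array left out. The CCH-diet count of 9 was 4 under normexp and 5 to 12. The count of 1 for CCH in SAM/P-8 was 0 under normexp, with only the arrays compared and with the mean of probes, and 0 to 2. The interaction count of 0 was 0 to 1. The averaged strain count of 26 (22.0%, against 26.0% of all genes) was 10 under normexp. The averaged CCH count of 6 was 0 under normexp, 3 with the mean of probes and 2 to 10.

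Differences that turned sign, none of them called, follow by setting. In the deposited table CCH in SAM/R-1 gave -0.0002 for Aplp2. With the mean of probes, CCH in SAM/P-8 gave 0.0271 for Aph1a and 0.0648 for Aplp2, the averaged CCH contrast 0.0603 and the interaction 0.0089 for Aplp2, and the control-diet strain difference 0.0508 for Bace2. Under normexp Aph1a gave 0.0247 for CCH in SAM/P-8, and its probe 2 -0.0779 between strains on the CCH diet and -0.0296 in the interaction. CCH in SAM/R-1 gave -0.0511 for Aplp2, -0.0426 for App, -0.0203 for Bace1 and -0.0023 for Psen2, and the CCH-diet strain difference of Bace1 was 0.0084. Bace2 gave -0.0994 between strains on the CCH diet, -0.0582 averaged and -0.0823 in the interaction, its probe 2 -0.0372, -0.0035 and -0.0673, and Ncstn -0.376 on the CCH diet and -0.186 in the interaction. Under quantile scaling Aph1a probe 2 gave -0.0345 and Ncstn -0.0272 between strains on the CCH diet, Aplp2 0.0157 for CCH in SAM/P-8 and 0.0157 averaged, Bace1 0.0023 for CCH in SAM/P-8, and Bace2 0.0133 on the control diet and -0.0104 in the interaction, where its probe 2 gave -0.0146.

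With each array left out, the control-diet strain difference ran from -0.149 to 0.3485 for Bace2, -0.0908 to 0.0035 for Aph1a probe 2, -0.0150 to 0.0442 for Bace1 and -0.0568 to 0.0106 for Aph1a. On the CCH diet it ran from -0.0185 to 0.0245 for Aplp2, -0.0827 to 0.1836 for Bace2, -0.0681 to 0.0536 for Ncstn, -0.0372 to 0.0508 for Aph1a and -0.0416 to 0.0570 for its probe 2. CCH in SAM/P-8 gave -0.0601 to 0.0279 for Aph1a. CCH in SAM/R-1 gave -0.0140 to 0.0264 for Aplp2, -0.0358 to 0.0349 for Psen2, -0.0054 to 0.0760 for Aph1a probe 2 and -0.0211 to 0.2152 for Ncstn. The interaction ran from -0.3052 to 0.1924 for Bace2, -0.1334 to 0.150 for its probe 2, -0.0075 to 0.0805 for Aph1a, -0.0036 to 0.0950 for its probe 2, -0.0703 to 0.0476 for Aplp1 and -0.0008 to 0.1551 for Aplp2 probe 2, and the averaged strain difference from -0.0528 to 0.1959 for Bace2. The cause of these moves was not tested.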
